A study of Mus musculus with 10 samples.

Results

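Pacemaker (HCN) and T-type calcium channel messages were measured in the ventricles of Trbp-cKO and WT mice, as the genes Hcn2, Hcn3, Hcn4, Cacna1g and Cacna1h. Hcn4 fell in Trbp-cKO and Cacna1g rose, while Hcn2 did not pass the test and Hcn3 was too low for one. Cacna1h was higher in both Trbp-cKO libraries than in both WT libraries. It did not pass in edgeR (adjusted p = 0.126), though DESeq2 called it (adjusted p = 0.00723). These 5 genes were taken by symbol from the table of 2-week ventricle mRNA, out of 23360 genes, with the transcript of the highest total count kept for each. Cacna1i, a further T-type gene, is given beside them. The Trbp-cKO libraries came from mice of the C57BL/6 background with a conditional knockout of Trbp (gene symbol Tarbp2), and the WT libraries from wild-type mice of that background. Trbp binds double-stranded RNA and works with Dicer, which cuts miRNA precursors. The labels name neither the Cre driver nor the deleted cell type. For mRNA there were 2 Trbp-cKO and 2 WT libraries, from mice aged 2 weeks. For small RNA there were 3 Trbp-cKO and 3 WT libraries, from postnatal day 2.5.

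HCN channels open when the membrane hyperpolarizes, pass sodium and potassium, and bind cyclic AMP, so that they carry the pacemaker current of the sinoatrial node. T-type calcium channels open at more negative potentials than the L-type channels of the working heart and close again quickly. In rodents, Hcn4 and the T-type genes are more widely expressed in the fetal ventricle, decline there after birth, and can return in hypertrophied or failing ventricle.

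Between 10151184 and 13540495 counts fell on genes in each mRNA library. Levels are counts scaled to library size with TMM factors (CPM) and are given per library. Differences are log2 fold changes of Trbp-cKO relative to WT, each ± its standard error (SE), and a gene was called at a Benjamini-Hochberg adjusted p under 0.05 over all tested genes. Of 13625 tested genes, 9.37% were called, 5.17% upward and 4.20% downward (705 and 572 genes), and the median log2 fold change was 0.00. With total count scaling the balance turned, to 541 genes upward and 725 downward. The targeted gene Tarbp2 stood at 3.87 and 3.88 CPM in Trbp-cKO, against 12.7 and 11.5 CPM in WT (-1.64 ± 0.17, edgeR adjusted p = 0.000653). Nothing in the labels says that replicates are separate animals, so that p-values measure the spread between these libraries only. In this bulk tissue, fewer cells of a type and less RNA per cell cannot be told apart.

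Of the 5 genes, 4 passed the filter on low counts and Hcn3 did not. Of the 4 tested, Cacna1g rose, Hcn4 fell, and Hcn2 and Cacna1h did not pass the test. The genotypes did not overlap for Hcn4, Cacna1g and Cacna1h, as was also the case for 54.6% of all tested genes.

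Hcn4, whose channel carries most of the sinoatrial pacemaker current, had 2.24 and 2.69 CPM in Trbp-cKO, against 11.3 and 11.2 CPM in WT. These values rest on 29 and 36 counts in Trbp-cKO and 150 and 116 counts in WT. Both Trbp-cKO libraries lay far below both WT libraries, which differed from each other 1.01-fold. The log2 fold change was -2.19 ± 0.19 (SE; 95% interval -2.61 to -1.76; edgeR quasi-likelihood test, adjusted p = 0.000240). Only 0.330% of tested genes had a lower log2 fold change. Hcn4 lies on chromosome 9, from 58822949 to 58863175 in GRCm38, and its span overlaps that of no other annotated gene.

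Hcn2, which encodes the HCN subunit usually described as the main one of rodent ventricle, had 76.1 and 81.3 CPM in Trbp-cKO, against 65.6 and 81.9 CPM in WT. The genotypes overlapped, with the highest and the lowest value both in WT. Its log2 fold change was 0.10 ± 0.11 (edgeR adjusted p = 0.655), and the 95% interval of -0.15 to 0.35 leaves out a change of the size of Hcn4's. The estimate turned to -0.06 without WT replicate 1. Hcn2 spans 79716634 to 79736108 of chromosome 10.

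Hcn3, a further subunit gene of the family, was close to the limit of detection. It had 2 and 1 counts in the Trbp-cKO libraries, against 0 and 2 counts in the WT libraries. A floor of 3 counts corresponds to 0.224 to 0.291 CPM per library, and every Hcn3 value lay under it, so that no fold is given. The span of Hcn3 (chromosome 3, 89146775 to 89160284) overlaps that of Pklr.

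**Figure D1:**
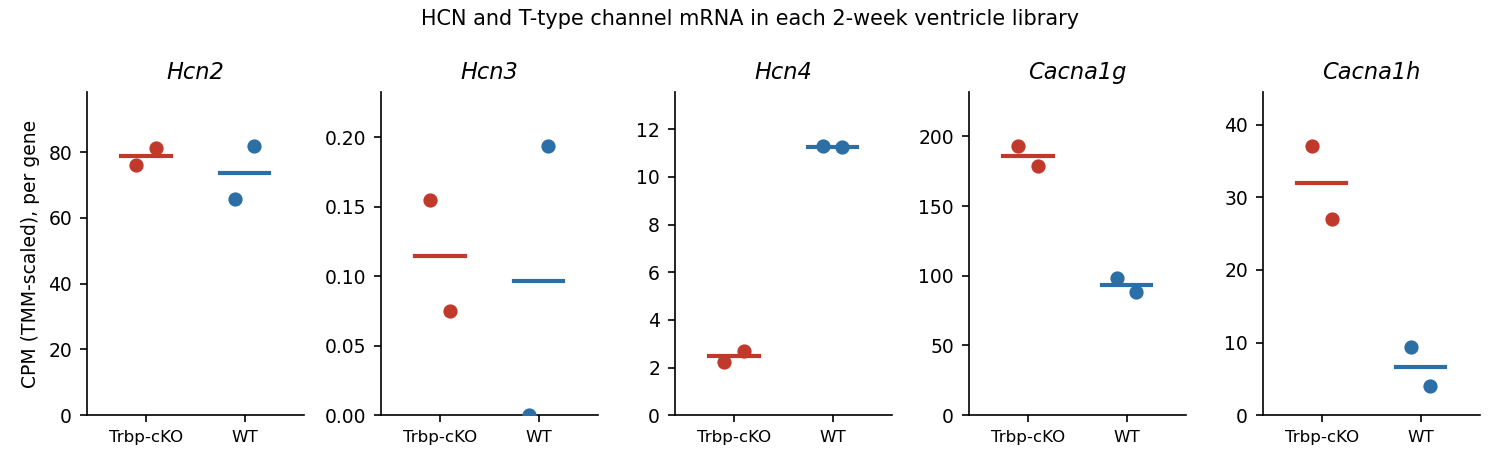
Level of each of the 5 genes (CPM, linear axes that differ between panels) in the 2 Trbp-cKO (left, red) and 2 WT (right, blue) libraries; dots are libraries and bars their mean. Hcn4 stands at 2.24 and 2.69 CPM in Trbp-cKO and at 11.3 and 11.2 CPM in WT, and the order of the genotypes is the opposite for Cacna1g and Cacna1h.

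The sum of Hcn2, Hcn3 and Hcn4 was 78.5 and 84.0 CPM in Trbp-cKO, against 76.9 and 93.4 CPM in WT. These sums overlapped, and the ratio of their means was 0.955. Of the counts of these 3 genes, Hcn4 gave 2.86% and 3.20% in Trbp-cKO, against 14.7% and 12.0% in WT. Hcn2 gave 96.9% and 96.7% in Trbp-cKO, against 85.3% and 87.8% in WT. The shares of both genes did not overlap between genotypes. No transcript lengths were at hand, so these shares compare a gene between libraries and do not rank genes by level. In an exact two-sided permutation test over libraries the shares of Hcn4 and Hcn2 each reached p = 0.333, the smallest that 2 against 2 allows (0.4 adjusted over the 6 shares examined).

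**Figure D2:**
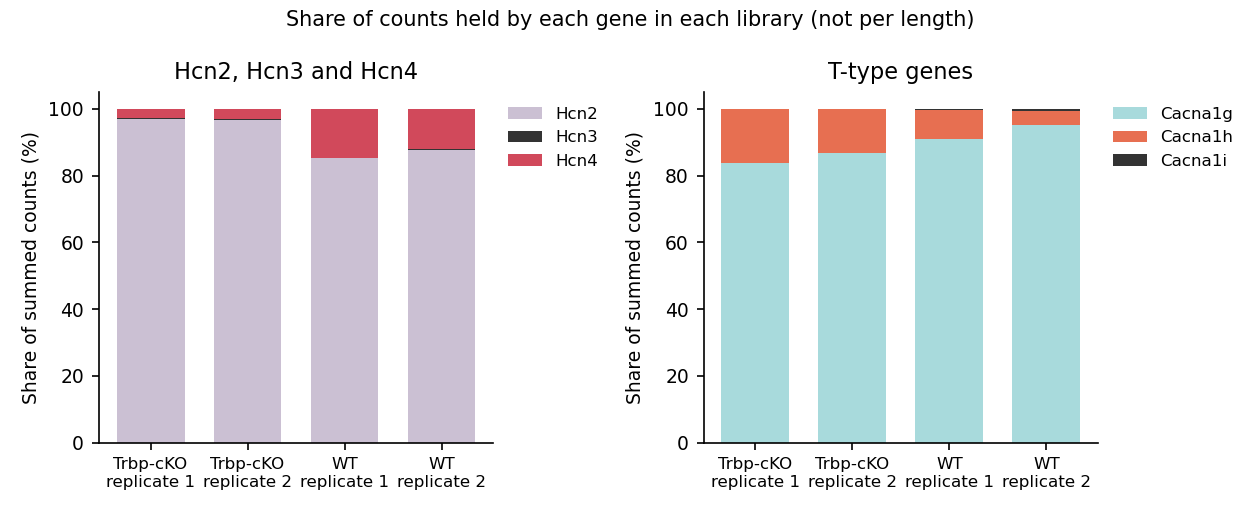
Share of the summed counts of Hcn2, Hcn3 and Hcn4 (left) and of the T-type genes (right) held by each gene in each library, in percent, with Trbp-cKO libraries left of WT libraries. Hcn4 takes 2.86% and 3.20% in Trbp-cKO and 14.7% and 12.0% in WT, and Cacna1h takes 16.1% and 13.1% in Trbp-cKO and 8.64% and 4.26% in WT.

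The windows before the annotated starts of Hcn4 and Hcn2 are shown because these HCN genes differed in their response. RefSeq promoter windows (GRCm38.p6) were at hand for these 2 of the 5 genes, and the 250 bases upstream of the start are printed on the plus strand, with GC boxes in capitals.
Hcn4, chr9:58822699-58822948: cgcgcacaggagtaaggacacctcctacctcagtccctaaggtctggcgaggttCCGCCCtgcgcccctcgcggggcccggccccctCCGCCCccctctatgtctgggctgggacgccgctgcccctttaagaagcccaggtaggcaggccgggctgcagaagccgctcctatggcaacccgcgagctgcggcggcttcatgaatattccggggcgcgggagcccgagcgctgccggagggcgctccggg
Hcn2, chr10:79716384-79716633: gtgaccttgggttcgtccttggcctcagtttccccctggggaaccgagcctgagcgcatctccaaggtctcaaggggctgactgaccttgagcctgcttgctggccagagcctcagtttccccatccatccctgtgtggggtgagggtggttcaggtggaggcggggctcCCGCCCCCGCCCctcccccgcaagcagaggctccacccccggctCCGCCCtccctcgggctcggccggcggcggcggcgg
Both windows were rich in G and C, at 71.2% for Hcn4 and 70.4% for Hcn2, against a median of 52.4% over 32841 windows of the same length. The GC box (GGGCGG, on either strand), which binds Sp-family factors, occurred at 2 positions in the Hcn4 window and at 3 in the Hcn2 window, and 32.7% of all windows held it. The T-box core AGGTGT occurred at 1 position before Hcn4 and not before Hcn2, with 11.8% of all windows holding it. An E-box (CANNTG) occurred at 1 position before Hcn2 and not before Hcn4, and 66.2% of all windows held it. Neither window held TATAAA (12.4% of all windows) or GATAAG (6.55%). No match overlapped a match of another motif. These are matches of letters, searched on both strands, with no measurement of binding.

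Cacna1g, the T-type channel gene that predominates in adult mouse heart, had 193 and 179 CPM in Trbp-cKO, against 98.4 and 88.6 CPM in WT. Both Trbp-cKO libraries lay above both WT libraries, by at least 1.82-fold. The log2 fold change was 0.99 ± 0.08 (95% interval 0.82 to 1.16; edgeR adjusted p = 0.000103). The table holds 4 transcript rows for Cacna1g, and their counts were nearly the same, as with 2496, 2490, 2489 and 2489 counts in Trbp-cKO replicate 1. Isoforms of the gene therefore could not be told apart by these counts. Cacna1g lies on chromosome 11 (94408391 to 94474400), where an annotated long non-coding RNA, Gm51872, overlaps it.

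Cacna1h, the T-type channel gene described as the more fetal one in rodent ventricle, had 37.1 and 27.0 CPM in Trbp-cKO, against 9.34 and 3.97 CPM in WT. The underlying counts were 479 and 361 in Trbp-cKO, and 124 and 41 in WT. Its lowest Trbp-cKO value was 2.89-fold above its highest WT value, but the WT libraries differed 2.35-fold from each other, a wider gap than that of 98.5% of tested genes. The log2 fold change of 2.23 ± 0.49 was higher than that of 99.8% of tested genes and did not pass the test (95% interval 0.66 to 3.80; edgeR adjusted p = 0.126, unadjusted p = 0.0207).

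The call on Cacna1h differed between settings. DESeq2 called it (adjusted p = 0.00723), and in the authors' deposited table it has a ratio of 4.65 and a q-value of 5.34e-30. It also passed without WT replicate 1 (log2 fold change 3.01, edgeR adjusted p = 0.0140) and without WT replicate 2 (1.77, edgeR adjusted p = 0.0298), where the lone WT library is assumed to vary like the Trbp-cKO pair. Without either Trbp-cKO library it did not pass (edgeR adjusted p = 0.342 and 0.326). The adjusted p ranged from 0.00723 to 0.342 over the alternative scalings, filters, tests and left-out libraries. The span of Cacna1h (chromosome 17, 25374285 to 25436334) overlaps those of Tpsg1 and the non-coding Gm33617.

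For the other channel genes, the authors' deposited table gives ratios of Trbp-cKO over WT of 0.219 for Hcn4 (q = 6.67e-18), 1.98 for Cacna1g (q = 6.48e-09) and 1.06 for Hcn2 (q = 1). Cacna1i, the T-type gene best known from brain, had 3 and 2 counts in Trbp-cKO and 5 and 6 counts in WT and was too low to test.

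**Figure D3:**
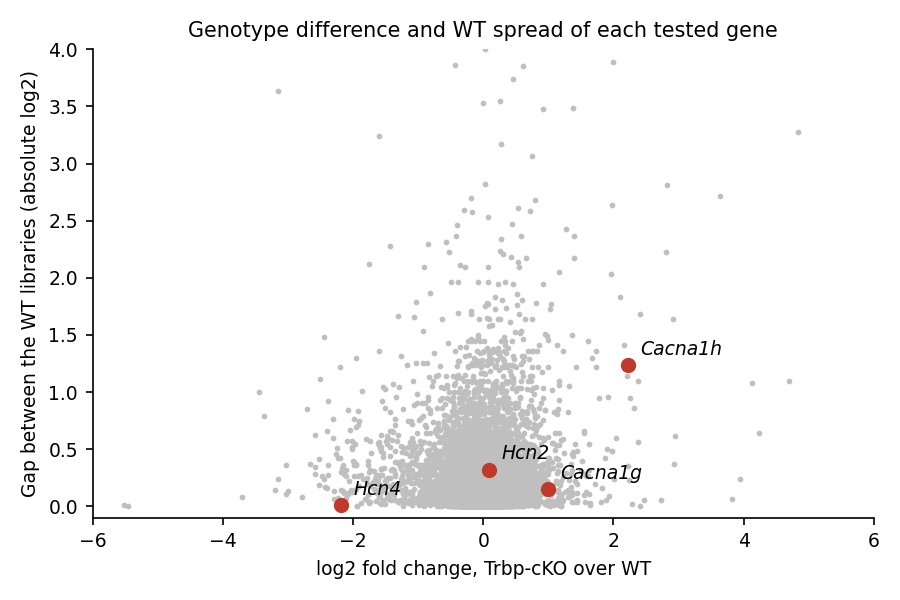
Each grey dot is 1 of the 13625 tested genes, with its log2 fold change (Trbp-cKO over WT) on the horizontal axis and the absolute log2 gap between the 2 WT libraries on the vertical axis; 22 genes lie outside the limits. The WT libraries differed 1.01-fold for Hcn4, 1.11-fold for Cacna1g and 2.35-fold for Cacna1h.

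The 3 T-type genes together had 230.4 and 206 CPM in Trbp-cKO, against 108 and 93.2 CPM in WT, a ratio of means of 2.17. Cacna1h supplied 16.1% and 13.1% of the T-type counts in Trbp-cKO, against 8.64% and 4.26% in WT. Cacna1g supplied 83.8% and 86.8% in Trbp-cKO, against 91.0% and 95.1% in WT. The shares of both genes did not overlap between genotypes (exact permutation p = 0.333, the smallest possible here). With all transcript rows summed, the mean Cacna1h share was 7.90% in Trbp-cKO and 3.36% in WT, because Cacna1g has more rows.

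**Figure D4:**
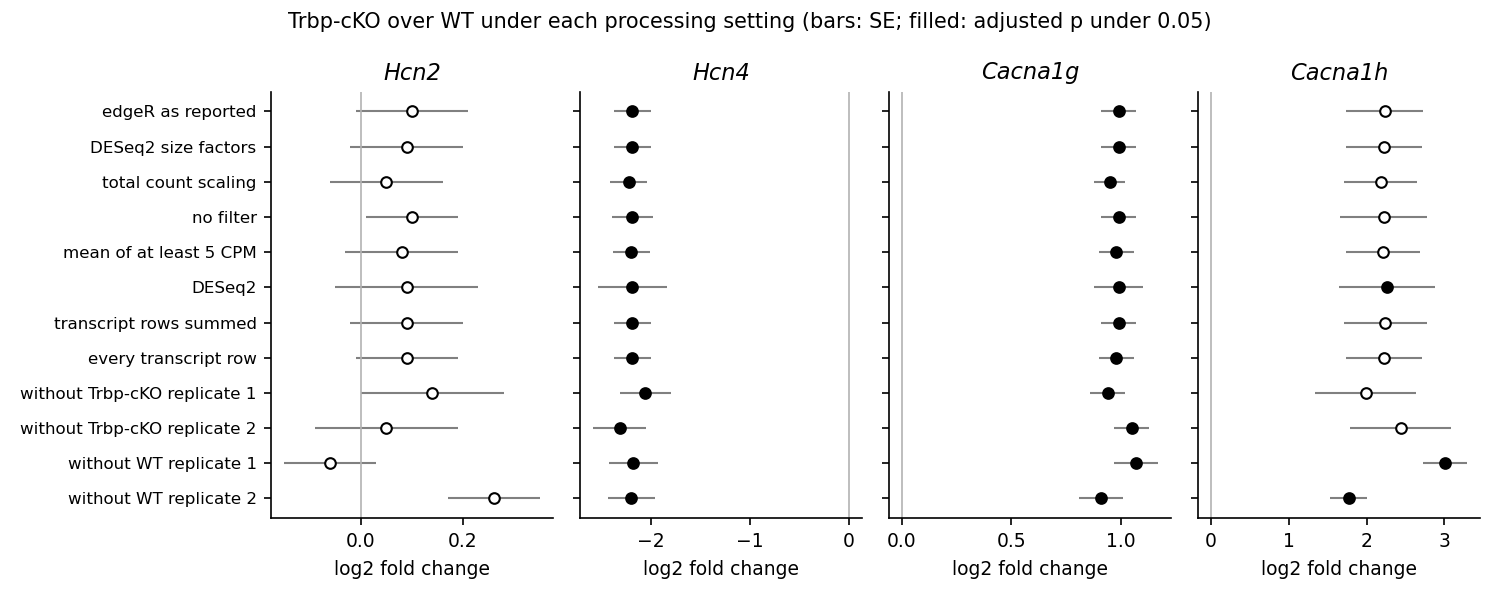
Log2 fold change (Trbp-cKO over WT, horizontal axis) of the 4 tested genes as reported and under alternative scalings, filters, tests and left-out libraries (rows); bars are SE, filled dots passed at an adjusted p under 0.05, and the axes differ between panels. Hcn4 and Cacna1g are filled in every row, Hcn2 in none, and Cacna1h is filled in DESeq2 and without either WT library.

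Over the 4 libraries, the genes with the profile most like each tested gene were picked by the distance between centred log2 CPM values, among 10577 genes of at least 5 CPM. Closest to Hcn4 were Plekhh1 (distance 0.0767), Tecrl (0.0802), a reductase-family gene of heart, and Top2a (0.249), the topoisomerase of dividing cells. Plekhh1 had 7.51 and 8.66 CPM in Trbp-cKO, against 33.9 and 35.7 CPM in WT. Closest to Cacna1g were Pkig (0.0767), which encodes an inhibitor of protein kinase A, Morf4l1 (0.103), a chromatin protein gene, and Hlf (0.109), a transcription factor gene. Pkig had 247 and 223 CPM in Trbp-cKO, against 119.7 and 116 CPM in WT.

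Closest to Cacna1h, though at larger distances, were the stress-induced transcription factor gene Atf3 (0.587), the chaperone gene Hspa8 (0.791) and the early-response gene Btg2 (0.946). Atf3 had 135 and 82.8 CPM in Trbp-cKO, against 48.0 and 19.5 CPM in WT, with the same order of the 4 libraries as Cacna1h. Atf3 (log2 fold change 1.67 ± 0.68, edgeR adjusted p = 0.348) and Btg2 (2.38 ± 0.85, edgeR adjusted p = 0.311) did not pass the test, though DESeq2 called Btg2 (adjusted p = 0.0443). Hspa8 rose, with 208 and 219 CPM in Trbp-cKO, against 48.6 and 41.5 CPM in WT (2.24 ± 0.09, edgeR adjusted p = 1.23e-06). It has near-identical copies in the genome, and reads shared with them may have been added to its count or left out. Closest to Hcn2, with distances of 0.0220 to 0.0305, were Ccdc8, Rpl31 and Inpp5f, none of which passed.

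Among partners and regulators of HCN channels, none of 6 tested genes passed in edgeR or in DESeq2, and none had an unadjusted p under 0.05. The median over these genes was 0.05. The smallest p belonged to the kinase gene Src, with 6.11 and 8.29 CPM in Trbp-cKO, against 8.06 and 9.88 CPM in WT (-0.31 ± 0.20, edgeR adjusted p = 0.397), and the phosphatase gene Ptpra was at 0.08 ± 0.08 (edgeR adjusted p = 0.584). Flna, a filamin gene, had 348 and 446 CPM in Trbp-cKO, against 437 and 418 CPM in WT (-0.11 ± 0.12, edgeR adjusted p = 0.652), and was called with Trbp-cKO replicate 2 left out (-0.29, edgeR adjusted p = 0.0265), where the WT pair alone gives the spread. Kcne2 and Pex5l, an auxiliary subunit gene and the gene of a trafficking subunit, were too low to test.

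Of 14 tested genes that set cyclic AMP, the ligand of HCN channels, 4 rose and none fell, and the median was 0.24. Among all tested genes, 5.17% were called upward. Cyclic AMP itself was not measured. Chrm2, the muscarinic receptor through which the vagus lowers cyclic AMP, had 141 and 158 CPM in Trbp-cKO, against 79.8 and 71.5 CPM in WT (log2 fold change 0.98 ± 0.08, edgeR adjusted p = 0.000204). The cyclase genes Adcy6 (0.42 ± 0.07) and Adcy5 (0.28 ± 0.06) and the phosphodiesterase gene Pde4b (0.45 ± 0.08) also rose. Without WT replicate 1 or 2, Adcy6 was at 0.42 and 0.42, Adcy5 at 0.30 and 0.26, and Pde4b at 0.53 and 0.37. These 3 calls were then lost, which left Chrm2 alone. Fits with 1 WT library called far fewer genes in all, here and in the lists below.

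Of 11 tested subunits of the other voltage-gated calcium channels none passed in edgeR (median -0.17), with 6 at an unadjusted p under 0.05. DESeq2 called 1, the alpha-2-delta subunit gene Cacna2d1 (adjusted p = 0.0375). Cacna2d1 had 182 and 199.5 CPM in Trbp-cKO, against 264 and 222 CPM in WT (log2 fold change -0.35 ± 0.09, edgeR adjusted p = 0.0525). Cacna2d3 was at -1.76 ± 0.50 (edgeR adjusted p = 0.0589), from at most 19 counts in a library. In edgeR Cacna2d1 also passed with total count scaling (adjusted p = 0.0367), with every transcript row (0.0474) and with no filter on low counts (0.0160), where Cacna2d3 (0.0416) and Cacna1s passed too. Cacna2d2 was called with transcript rows summed, and Cacna1s and Cacnb2 were called without Trbp-cKO replicate 2, with the spread taken from the WT pair alone. The count of called genes was thus 1 to 3 in 6 of 12 alternatives and 0 in the other 6. Cacna1c, the main L-type channel gene of ventricle, had 371 and 410.0 CPM in Trbp-cKO, against 374 and 359 CPM in WT (0.09 ± 0.08, edgeR adjusted p = 0.524). Cacna1d, the L-type gene of the sinoatrial node, was at 0.38 ± 0.16 (edgeR adjusted p = 0.184).

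Of 7 tested genes that modify T-type channels, including Prkca, Usp5 and Wwp1, 1 fell and none rose (median -0.05). Downward calls made up 4.20% of all tested genes. The gene that fell was Camk2d, the main calmodulin-dependent kinase gene of heart. Camk2d had 217 and 227 CPM in Trbp-cKO, against 283 and 282 CPM in WT (-0.35 ± 0.07, edgeR adjusted p = 0.0127). Without WT replicate 1 or 2 it was not called (edgeR adjusted p = 0.145 and 0.142).

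Among 13 tested transcription factors of the pacemaker and conduction system, 2 rose, 1 fell and the median was 0.08. Over all tested genes, 5.17% were called upward and 4.20% downward. Hopx, a cofactor gene of heart and conduction system, had 11.2 and 9.78 CPM in Trbp-cKO, against 477 and 482 CPM in WT (-5.51 ± 0.09, edgeR adjusted p = 1.30e-09). Tbx18, a factor of the sinus node primordium and epicardium, had 21.7 and 14.3 CPM in Trbp-cKO, against 8.97 and 10.2 CPM in WT (0.91 ± 0.21, edgeR adjusted p = 0.0330). Sp1, a GC-box binding factor, rose by 0.38 ± 0.07. Tbx18 and Sp1 were not called without WT replicate 1 or 2 (edgeR adjusted p between 0.112 and 0.241), and Tbx18 not without Trbp-cKO replicate 1 (0.101). Tbx3, which maintains nodal identity, was at -0.11 ± 0.11 (edgeR adjusted p = 0.633).

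The repressor NRSF (gene Rest) is known in mouse ventricle to hold down fetal genes, Hcn2, Hcn4 and Cacna1h among them. Rest had 28.2 and 23.2 CPM in Trbp-cKO, against 27.5 and 24.0 CPM in WT (-0.01 ± 0.12, edgeR adjusted p = 0.979). Of 11 tested genes of its complex and its other targets, 2 rose and none fell (median 0.10), where 5.17% of all tested genes were called upward. The 2 were the deacetylase gene Hdac5 (0.36 ± 0.07, edgeR adjusted p = 0.0112) and the corepressor gene Sin3a (0.30 ± 0.08, edgeR adjusted p = 0.0384). Both calls were lost without WT replicate 1 or 2 (edgeR adjusted p between 0.107 and 0.217), and that of Sin3a also in DESeq2 (adjusted p = 0.247), with total count scaling (edgeR adjusted p = 0.0660) and without either Trbp-cKO library (0.0990 and 0.0731). The target Nppa, the atrial natriuretic peptide gene, had 173 and 577 CPM in Trbp-cKO, against 68.9 and 66.3 CPM in WT, and did not pass (2.47 ± 0.88, edgeR adjusted p = 0.307). DESeq2 called it (adjusted p = 0.0310). With Trbp-cKO replicate 1 or 2 left out its log2 fold change was 3.09 or 1.35; edgeR called both, but the lone Trbp-cKO library is there assumed to vary like the WT pair, while the Trbp-cKO libraries themselves differed more than 3-fold. The target Acta1, the skeletal actin gene, had 78.5 and 107 CPM in Trbp-cKO, against 253 and 451 CPM in WT (-1.92 ± 0.46, edgeR adjusted p = 0.189). DESeq2 called it (adjusted p = 0.00116). With WT replicate 1 or 2 left out edgeR also called it (adjusted p = 0.0159 and 0.0472), but the spread there comes from the Trbp-cKO pair alone.

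Of 8 tested genes for calcium cycling and other sinus node currents, 5 rose and none fell (median 0.28), and DESeq2 called 3. The upward share over all tested genes was 5.17%. Ryr2 is also among the 8 ventricular myocyte markers given below, of which 4 rose and 2 fell. Kcnj5, a subunit gene of the acetylcholine-activated potassium channel, had 250.2 and 256 CPM in Trbp-cKO, against 166 and 182 CPM in WT (0.54 ± 0.07, edgeR adjusted p = 0.00221). Kcnj3, another subunit gene of that channel, was lower, with 25.8 and 25.8 CPM in Trbp-cKO, against 34.1 and 29.8 CPM in WT. Kcnj3 did not pass (-0.31 ± 0.10, edgeR adjusted p = 0.0808). Ryr2, the calcium release channel gene, had 3890.2 and 3723 CPM in Trbp-cKO, against 3098 and 3016 CPM in WT (0.32 ± 0.06, edgeR adjusted p = 0.0134). The calcium pump gene Atp2a2 (0.30 ± 0.05) and Kcnq1 (0.39 ± 0.08), a pore gene of the slow delayed rectifier, rose as well. None of the 5 passed without WT replicate 1, and 1, Kcnj5, passed without WT replicate 2.

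**Figure D5:**
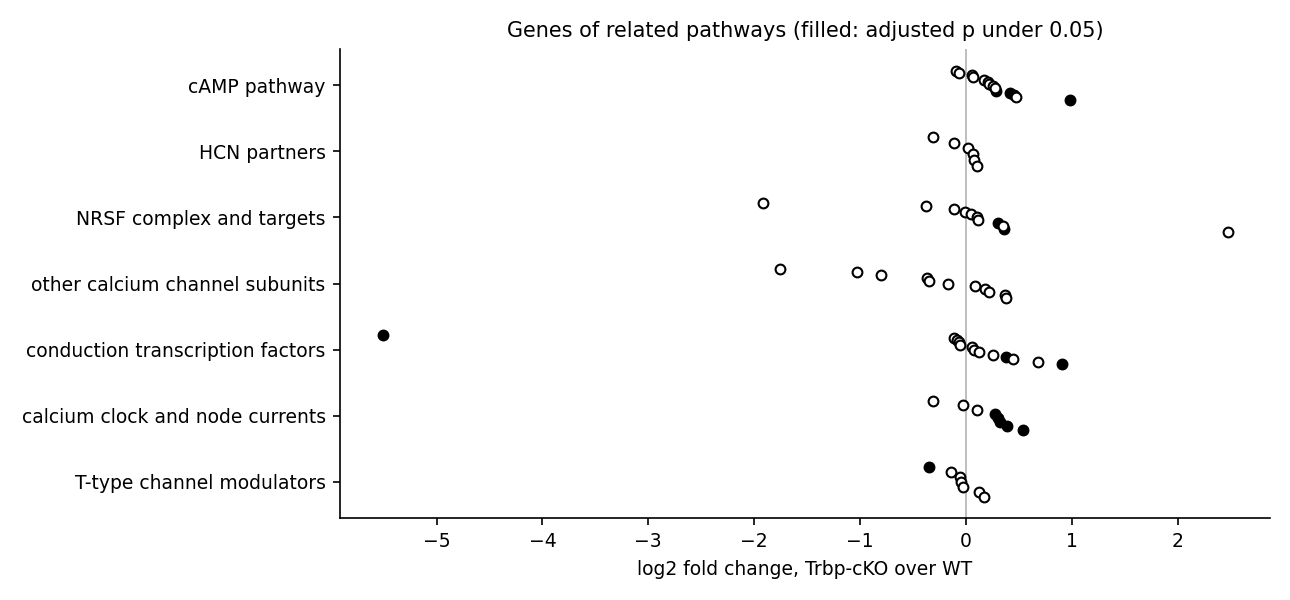
Log2 fold change (Trbp-cKO over WT) of every tested gene in the 7 related lists, 1 dot per gene; filled dots passed at an adjusted p under 0.05. Hopx at -5.51 is the far filled dot, and the calcium cycling and node current list holds 5 filled dots of 8.

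Markers of the cells that express these channels most were examined in the same libraries. None of 9 tested markers of the conduction system passed in edgeR or in DESeq2, with 4 at an unadjusted p under 0.05. Of these 4, Cntn2 and Cacna2d2 (-0.80 ± 0.32) were lower in Trbp-cKO, and Igfbp5 (0.19 ± 0.08) and Gjc1 (0.18 ± 0.08) higher. The summed level of all 12 markers was 386 and 400.0 CPM in Trbp-cKO, against 360.3 and 344 CPM in WT. Most of this sum was Igfbp5, with 249 and 265 CPM in Trbp-cKO, against 236 and 214 CPM in WT. Isl1, a sinus node factor, had no count in any library, and Cntn2, a marker of Purkinje cells, was at -0.39 ± 0.15 (edgeR adjusted p = 0.150). The 7 atrial markers summed to 217 and 632 CPM in Trbp-cKO, against 116 and 112 CPM in WT, mostly Nppa, while Bmp10 was at 0. Of 4 tested atrial markers none passed in edgeR, and DESeq2 called 1, Nppa. In edgeR 2 had an unadjusted p under 0.05, Kcnj3, which was lower in Trbp-cKO (-0.31 ± 0.10), and Stard10, which was higher (0.68 ± 0.20). Of 5 tested nerve and glia markers 1 rose, Dbh, the enzyme gene of noradrenaline synthesis, with 18.3 and 13.5 CPM in Trbp-cKO, against 7.91 and 7.75 CPM in WT (edgeR adjusted p = 0.00848, and 0.0969 and 0.0948 without WT replicate 1 or 2). Th and Chat had no count, and the 10 nerve and glia markers summed to 29.4 and 26.2 CPM in Trbp-cKO, against 21.4 and 21.0 CPM in WT. Of 8 ventricular myocyte markers 4 rose and 2 fell, the latter Myl3 (-1.74 ± 0.08) and Myl2 (-0.31 ± 0.06). Over all tested genes, 5.17% were called upward and 4.20% downward. The 8 markers summed to 87417 and 91643 CPM in Trbp-cKO, against 82582 and 81172 CPM in WT. The largest part of this sum was Myh6, which rose, with 42509 and 44227 CPM in Trbp-cKO, against 33157 and 33013 CPM in WT. The part of these differences in the channel results was not tested.

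Small RNA was read in younger hearts, at postnatal day 2.5, for miRNAs described as repressors of HCN genes in heart, namely miR-1a-3p, miR-133a-3p, miR-133b-3p and miR-423-5p. The 2 that could be tested are shown with their seed (bases 2 to 8) in capitals, from RefSeq (GRCm38.p6).
miR-133b-3p, chr1:20682834-20682855, plus strand: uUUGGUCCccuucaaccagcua
miR-423-5p, chr11:77078122-77078144, minus strand: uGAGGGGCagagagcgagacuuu
Of 401 tested arms, 16.7% were called. miR-133b-3p had 5.88, 8.89 and 8.93 CPM in Trbp-cKO, against 20.4, 17.1 and 14.8 CPM in WT. The arm fell, with a log2 difference of -1.14 ± 0.26 (edgeR adjusted p = 0.00970), and had 15 to 22 counts per library in Trbp-cKO and 42 to 63 counts in WT. miR-423-5p had 516, 574 and 472 CPM in Trbp-cKO, against 522, 472 and 426 CPM in WT (0.14 ± 0.13, edgeR adjusted p = 0.584), and the genotypes overlapped. In the authors' deposited table miR-133b-3p has a log2 fold change of -1.18 (q = 0.00196) and miR-423-5p of 0.182 (q = 1). The hairpins of miR-133a-3p are listed at 0 in all 6 libraries and those of miR-1a-3p at 5 counts or fewer. Among these rows, miR-1a-2-3p, had 5, 5 and 2 counts in Trbp-cKO and no count in WT, and has a log2 fold change of 5.18 (q = 0.00928) in the authors' deposited table. Both miR-1a-3p and miR-133a-3p are known to be abundant in heart, so their levels could not be assessed from these rows. The low counts of miR-133b-3p may be under the same limit, because the counting of reads shared between miRNAs is not known. Target sites of the miRNAs in the channel transcripts were not examined, and the ages of the assays differ.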

How the data were processed

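Trizol RNA from frozen ventricles went into TruSeq mRNA or small RNA libraries, per the labels' protocols. Bowtie 0.12.9, edgeR, cutadapt 0.9.5, CASAVA 1.8.2, SAMtools 0.1.16 and build mm10 appear without roles in the submitters' processing notes. How reads were counted, and whether by strand, is not given in the sources used here. Raw counts, deposited by the authors, are given for each RefSeq transcript and each miRNA arm, as whole numbers and unequal column totals show. Per the file headers, the deposited tables also hold, per transcript, a ratio, p-values, q-values and a mean normalized signal. For each arm they hold, per the file headers, a deposited log2 fold change and its p-values and q-values. The authors' comparison values are quoted as theirs and entered no test, and the signal columns were not used.

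Of 30635 transcript rows, 30020 matched the RefSeq gene table of GRCm38.p6, which shares coordinates with mm10. The 110 rows without a name (0.117% to 0.14% of a library's counts) were left out, and the transcript with the highest total was kept per gene. Each assay was fitted alone, since their ages differ, with edgeR 4.0.16 in R 4.3.3 (filterByExpr, TMM, robust glmQLFit, glmQLFTest). Small RNA libraries held 2201143 to 3885375 counts. DESeq2 1.42.0 was an alternative. The SE is the log2 fold change divided by the square root of F. Lengths were not at hand, so shares within the HCN and T-type genes are of counts.

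The genes, the lists and the rule for named genes were chosen with earlier results of these data known. Some items of the lists and the rule are not reported here. Named are the 5 genes, Cacna1i and Tarbp2, up to 4 passing genes per list (or the 2 with the smallest p), the 3 genes of nearest profile, and markers at 0 or past the threshold in the lists for conduction, atrial and nerve cells. Rest, Tbx3, Cntn2, Cacna1c, Cacna1d, Nppa, Acta1, Flna, Myh6, Myl2 and Myl3 were added after their values were seen. The same holds for untested or unpassed list members given by name. Markers of smooth muscle and pericytes (0 of 10 passed in edgeR or DESeq2, 2 at an unadjusted p under 0.05) were also counted. So were those of fibroblasts (1 of 8 rose and 3 fell), endothelium (1 of 7 rose, with 0 called in DESeq2) and blood (2 of 7 fell). Of all tested genes, 9.37% were called. Genes that overlap others or share reads with copies are uncertain, because the counting of such reads is not known.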

Additional observations from a re-analysis of the deposited data

How the results depend on the processing

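Alternatives covered scaling, filters, DESeq2, summed or separate transcript rows, each library left out, and the replicate number as a block. Hcn4 (log2 fold change -2.32 to -2.06) and Cacna1g (0.91 to 1.07) passed in all 12 alternatives. Cacna1h passed in DESeq2 at 2.26, with the replicate block at 2.30, and in part when 1 library was left out (1.77 to 3.01). Hcn2 passed in none and ran from -0.06 to 0.26 with 1 library left out. DESeq2 called 450 genes higher and 318 lower, against 705 and 572 in edgeR, and total count scaling gave 541 and 725. With 1 library left out the counts ran from 144 to 684 higher and from 131 to 487 lower, lowest without WT replicate 1 (144 and 131) and without WT replicate 2 (155 and 142). Fewer libraries enter these fits. The count of miRNA arms called ran from 48 to 116 with 1 library left out, against 67, and was 116 without WT replicate 1. miR-133b-3p passed in all 11 alternatives (-1.24 to -0.97). Signs turned for genes near 0 with 1 library left out, namely Rest (-0.16 to 0.13), Flna (-0.29 to 0.06), Ccdc8 (-0.05 to 0.25), Rpl31 (-0.09 to 0.27) and Inpp5f (-0.08 to 0.27). The causes of these changes were not tested.

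Replicate numbers are shared between genotypes, but nothing in the labels pairs the samples. Deviations of the same-numbered mRNA libraries correlated at 0.168, and those of small RNA at 0.114, 0.096 and 0.045, with every library closest to its own number. The replicate block gave 549 genes higher and 439 lower and 63 miRNA arms, called Cacna1h (edgeR adjusted p = 0.00410), Atf3 (0.0129) and Acta1 (0.000904), and lost Adcy5 (0.0525), Tbx18 (0.0584), Sin3a (0.0546), Ryr2 (0.0506) and Atp2a2 (0.0768), with 2 of 8 calcium cycling and node current genes called against 5. Shares per kilobase and their alternative by coding length were not run. Depth limits Hcn3 and Cacna1i, which lie at a few counts per library.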
